A study of Mus musculus with 12 samples.

Results

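The high-affinity IgE receptor of mast cells is built from 3 chains, and their genes are Fcer1a (alpha), Ms4a2 (beta) and Fcer1g (gamma). The members were all probe sets on the arrays whose annotated gene symbol was exactly 1 of these 3, chosen for the roles of the chains and not for their values. They are 4 probe sets out of 45137. Chip A carried 1 set for each chain, and chip B carried a further set of Ms4a2. All 4 passed the filter on dim sets, as did 23456 of the sets in all.

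The alpha chain is the part that binds IgE outside the cell. The beta chain crosses the membrane several times and amplifies the signal, and in rodents it is needed for the receptor to reach the surface. The gamma chain forms a disulphide-linked dimer and carries an ITAM, the tyrosine motif that recruits the kinase Syk when antigen cross-links the bound IgE. The gamma chain is not private to this receptor: it also serves activating Fc receptors for IgG and several lectin receptors of macrophages, monocytes and granulocytes, whereas alpha and beta are in mice largely confined to mast cells and basophils.

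The cells were mouse bone marrow cultures fed with interleukin-3 (IL-3), a cytokine on which mast cells and further myeloid cells grow. The mast cell precursors were 3 cultures kept for 14 to 16 days, of which M1 is labelled female and M3 and M5 male. The mature mast cells were 3 cultures kept for 57 to 110 days, of which M2 and M4 are labelled male and M6 female. Both groups had IL-3 throughout, and purity was put at about 80% in both, with stromal cells, monocytes and macrophages named as possible other cells. The labels used here give no strain, age or genotype and no treatment with IgE or antigen. They give nothing on whether cultures came from separate animals, so that p-values refer to these cultures only. The total RNA of a culture went onto a pair of Affymetrix arrays, MOE430A (here chip A) and MOE430B (here chip B), which makes 12 arrays.

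Several facts of the arrays touch the results below. The median signal ran from 534 to 692 on chip A and from 816 to 913 on chip B. Defining mast cell genes were bright in every culture, with the stem cell factor receptor Kit at 27352 to 38961 in precursors and 37208 to 47932 in the mature cultures, and the granule protease Cpa3 at 135749 or more throughout. The 3'/5' signal ratio of the actin control sets, a measure of RNA integrity, was 4.81 to 7.04 in precursors and 9.73 to 10.1 in the mature cultures on chip A, so that the groups did not overlap. The same ratio of the Gapdh control sets was 9.11 to 13.5 in precursors and 12.8 to 19.3 in the mature cultures on that chip. On chip B the groups overlapped in neither ratio. Actin was 4.87 to 7.25 in precursors and 8.66 to 10.8 in the mature cultures, and Gapdh was 9.44 to 13.7 and 16.8 to 22.0. The M6 arrays stood apart in a hybridization control: the middle BioB set read 22888 on chip A against 6504 to 8367 on the other arrays, and 47740 on chip B against 20206 to 25042. The part of RNA integrity and of the M6 arrays in the results was not tested, and values without M6 are given below.

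No probe sequences were used. The stretches of DNA just before the starts of the 3 genes are printed because most of the transcription factors known to act there were measured on the same arrays. Each is the 250 bases before the annotated start (RefSeq, build GRCm38.p6, minus strand, printed 5′ to 3′ along the gene), at chr1:173227230-173227479 for Fcer1a, chr19:11623720-11623969 for Ms4a2 and chr1:171234350-171234599 for Fcer1g. Capitals mark matches, on either strand, to the GATA motif (AGATAA or AGATAG, and likewise TGATAA or else TGATAG), the ETS motif (AGGAAG or CGGAAG) or the CCAAT box (CCAAT).
Fcer1a: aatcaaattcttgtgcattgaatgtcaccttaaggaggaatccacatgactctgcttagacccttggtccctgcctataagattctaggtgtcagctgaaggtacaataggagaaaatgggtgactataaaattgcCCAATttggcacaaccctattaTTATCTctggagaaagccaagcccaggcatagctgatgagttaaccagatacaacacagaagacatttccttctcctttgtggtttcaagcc
Ms4a2: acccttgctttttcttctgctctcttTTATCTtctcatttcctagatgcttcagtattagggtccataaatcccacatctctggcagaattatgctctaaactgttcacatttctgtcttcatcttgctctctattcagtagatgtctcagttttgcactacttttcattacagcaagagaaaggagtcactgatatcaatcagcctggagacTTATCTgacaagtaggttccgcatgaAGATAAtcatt
Fcer1g: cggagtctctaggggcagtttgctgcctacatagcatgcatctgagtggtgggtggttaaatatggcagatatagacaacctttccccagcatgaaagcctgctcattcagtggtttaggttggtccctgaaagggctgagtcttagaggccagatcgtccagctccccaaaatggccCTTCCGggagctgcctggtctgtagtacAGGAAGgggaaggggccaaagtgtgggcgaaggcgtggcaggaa

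The Fcer1a stretch held 1 GATA match, 92 to 87 bases before the start, and 1 CCAAT match, 114 to 110 bases before it. The Ms4a2 stretch held 3 GATA matches, which begin 224, 37 and 11 bases before the start. Ms4a2 has several transcripts, and the start used differs from the end of its gene record, so these positions hold for that start only. The Fcer1g stretch held no GATA match and 2 ETS matches, which begin 72 and 44 bases before the start. E-boxes (CANNTG), which are left in lower case, were matched at 2 places in Fcer1a and 1 in Fcer1g. The GC box (GGGCGG), the octamer (ATGCAAAT) and the E-box form CACGTG, which is 1 kind of CANNTG, were matched in none of the 3. Of 32851 stretches of this length in the same table, 26.5% held a GATA match, 39.2% an ETS match, 33.8% a CCAAT match and 66.2% an E-box. The other 3 motifs were held by 32.7% (GC box), 1.6% (octamer) and 6.02% (CACGTG). The bases were 42.4% G or C in Fcer1a, 38.8% in Ms4a2 and 54.8% in Fcer1g, against a median of 52.4%. A match here is a string of letters and not a binding site.

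**Figure D1:**
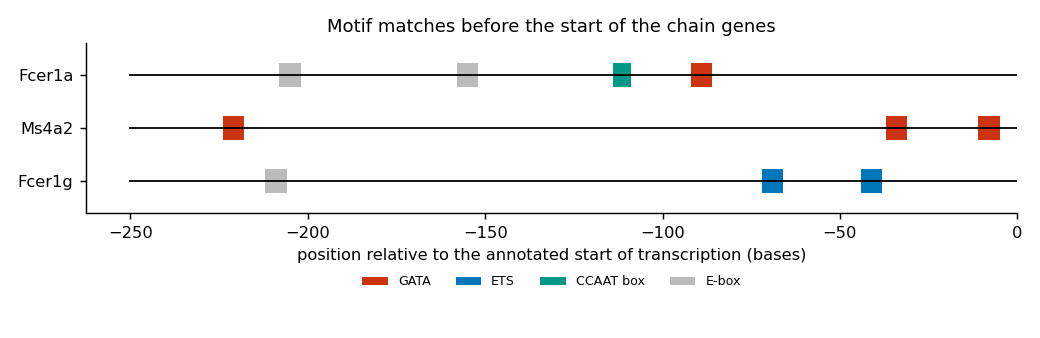
Motif matches in the 250 bases before the annotated start of each chain gene. The x axis is the distance from the start in bases, and coloured boxes are matches on either strand. GATA matches lie in Fcer1a (1) and Ms4a2 (3), and the 2 ETS matches lie in Fcer1g.

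The comparison asked whether the genes of the 3 chains differ in level between the 2 stages of culture. Signal is the deposited intensity of a probe set on a linear scale. It was taken to log2 and compared with limma, an adjusted p under 0.05 was called changed, and differences are mature minus precursor. In limma the variance of a set is drawn towards that of sets of like brightness. The SE and p of a set therefore do not rest on its own spread alone. None of the 4 sets changed. Of all sets tested, 0.527% changed on chip A and 0.0926% on chip B, so a count of 0 among 3 sets and 1 set lies near the background. Before adjustment, 763 sets on each chip had a limma p under 0.05, and none of the 4 members did. Signals of different probe sets do not compare as amounts of RNA, so each chain is set only against itself or by how its difference compares with that of another chain. In a whole culture, fewer cells of a type and less RNA per cell cannot be told apart.

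Fcer1a, the IgE-binding alpha chain, read 64451 in M1, 72011 in M3 and 45382 in M5 among the precursors. In the mature cultures it read 82842 in M2, 67385 in M4 and 76873 in M6. The mature cultures were high as a group, but M4 lay below the precursor M3, so the groups overlapped. The lowest value, that of M5, was 184 times the floor of the fit, and the set ranked between the 55th and the 163rd brightest of 22626 on chip A in each culture. The log2 signal was 15.86 ± 0.35 in precursors and 16.20 ± 0.15 in mature ones (SD, n = 3). The difference was 0.34 ± 0.23 (log2, SE; limma adjusted p = 0.851), with a 95% interval of -0.16 to 0.84, or 0.898-fold to 1.79-fold. M5 carried much of the difference, which was 0.15 without it. Fcer1a was lowest in M5 and M1. The basophil protease Mcpt8 was highest in the same cultures (24177 and 41656, against 125 to 1925 elsewhere). The basophil markers as a list did not follow Mcpt8. Their sum over 7 sets on chip A was 118660 in M1 but 71192 in M5, against 63037 to 96483 elsewhere. Itga2b and Basp1 were lowest in M5 (23080 and 18113). M5 and M1 also had the highest sums of neutrophil markers (295577 and 138087 over 13 sets, against 3409 to 60522). The 60522 was that of M3, where Chil3 alone read 56623. The part of basophils or neutrophils in the Fcer1a signal was not tested.

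Ms4a2, the beta chain, was read by a set on each chip. On chip A it read 9234 in M1, 10576 in M3 and 7426 in M5. The mature cultures read 10469 in M2, 10867 in M4 and 6829 in M6, so that both the highest and the lowest of the 6 values were mature ones. The log2 signal was 13.13 ± 0.26 in precursors and 13.17 ± 0.37 in mature ones (SD, n = 3). The difference was 0.033 ± 0.26 (log2, SE; limma adjusted p = 0.991). The 95% interval ran from -0.55 to 0.61, or from 0.684-fold to 1.53-fold. The sign of this difference was not fixed by the data: it was -0.061 without M2, -0.088 without M4, -0.10 without M5 and 0.25 without M6.

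The chip B set of Ms4a2 read 308008 in M1, 324415 in M3 and 298640 in M5, and 344258 in M2, 320036 in M4 and 428260 in M6. The precursors lay close together, and of the mature cultures only M4 lay within their range. The log2 signal was 18.24 ± 0.06 in precursors and 18.46 ± 0.22 in mature ones (SD, n = 3). The difference was 0.22 ± 0.32 (log2, SE; limma adjusted p = 0.928; 95% interval -0.49 to 0.93). Without M6 the difference was 0.098. The 2 sets of the gene disagreed about M6, which was the lowest of the 6 cultures on chip A and the highest on chip B. The chip B set ranked between 3rd and 5th of 22511 sets in every culture and reached 43.4% to 72.4% of the brightest set on its array. How far the signal still follows the amount of RNA at this brightness was not tested.

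Fcer1g, the gamma chain, had the largest difference of the 4 sets. It read 7916 in M1, 8901 in M3 and 8822 in M5, so that the highest precursor was 1.12 times the lowest. The mature cultures read 8267 in M2, 3720 in M4 and 5276 in M6. M4 and M6 lay below every precursor, while M2 lay among them. The log2 signal was 13.06 ± 0.09 in precursors and 12.41 ± 0.58 in mature ones (SD, n = 3). The difference was -0.65 ± 0.30 (log2, SE), a ratio of 0.639 mature over precursor, with a 95% interval of -1.30 to 0.0075. It did not pass (limma adjusted p = 0.748, unadjusted p = 0.0522). The size of the difference depended on M4 and M2, though not its sign: it was -0.37 without M4, -0.95 without M2 and -0.62 without M6.

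**Figure D2:**
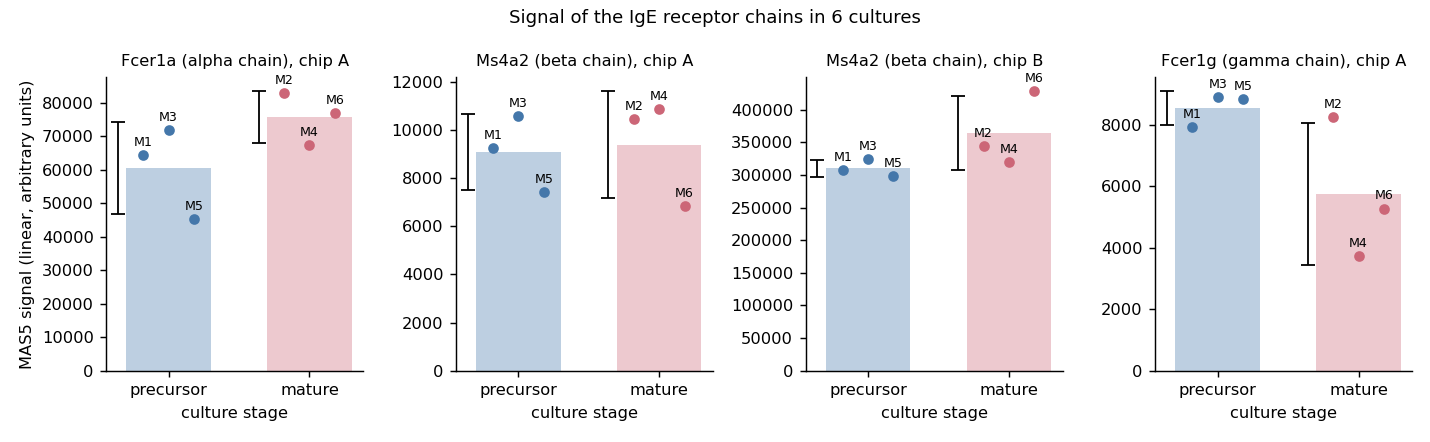
Signal of each probe set of the 3 chains (y axis, linear MAS5 units from 0; each panel has its own scale) in 3 precursor and 3 mature cultures. Points are cultures, bars are group means, and the error bars at the left of each bar are SDs. Fcer1g is low in M4 and M6 but not in M2, and M6 is the lowest culture for Ms4a2 on chip A and the highest on chip B.

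The spread of the chains within a group may be read beside that of other sets. The pooled within-group SD was 0.27 (log2) for Fcer1a, 0.32 for Ms4a2 and 0.41 for Fcer1g on chip A, where the median over all 11576 tested sets was 0.37. On chip B it was 0.16 for Ms4a2 against a median of 0.45 over 11880 sets. The limma SE of 0.32 for that set thus drew on the spread of other sets as well. The median difference of the 3 chip A sets was 0.033, against 0.018 over all tested sets of that chip. The middle 95% of all differences on chip A ran from -0.98 to 0.80, and the 3 chains lay inside it.

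**Figure D3:**
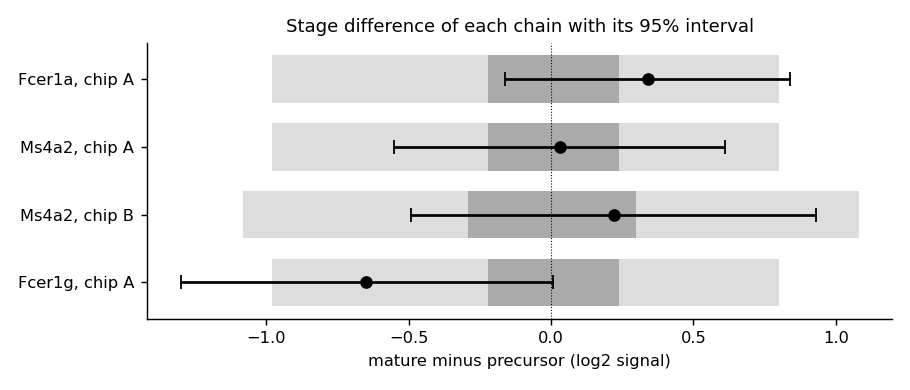
Mature minus precursor difference of each chain (x axis, log2 signal), as a point with its 95% interval from limma. Dark grey spans the middle 50% and light grey the middle 95% of the differences of all tested sets on the same chip. All 4 intervals include 0, and that of Fcer1g reaches it at its upper end (0.0075).

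The fluidics station, the washing unit named in the instrument records, held both groups: M1 and M2 were on station 1 and the other 4 cultures on station 2. Within station 1 the difference of Fcer1g was 0.06 (1 culture a group), and within station 2 it was -1.0 (2 a group). For Fcer1a the same values were 0.36 and 0.33. For Ms4a2 they were 0.18 and -0.04 on chip A and 0.16 and 0.25 for its chip B set. By labelled sex, with 1 female and 2 male cultures a group, the difference of Fcer1g was -0.59 in the female cultures and -0.68 in the male ones. That of Fcer1a was 0.25 and 0.39 in the same order, and that of Ms4a2 was -0.44 and 0.27 on chip A. The chip B set of Ms4a2 went the other way in the female cultures, with 0.48, and had 0.09 in the male ones.

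Whether the chains differed from each other in their stage difference was tested on the log2 signal of 1 chain minus that of another in each culture, over 3 pairs on chip A. The offset between 2 probe sets has no meaning of its own, and only its change between stages is read. For Fcer1a minus Fcer1g the values were 3.03 in M1, 3.02 in M3 and 2.36 in M5, against 3.32 in M2, 4.18 in M4 and 3.86 in M6. All 3 mature cultures lay above all 3 precursors, so that alpha was higher relative to gamma in each, with a shift of 0.99 in the means (2.80 ± 0.38 and 3.79 ± 0.43; SD, n = 3; exact permutation p = 0.1, two-sided, 0.15 adjusted over the 3 pairs). For Ms4a2 minus Fcer1g the values were 0.22, 0.25 and -0.25 in M1, M3 and M5 and 0.34, 1.55 and 0.37 in M2, M4 and M6. These groups did not overlap either, with a shift of 0.68 (exact permutation p = 0.1, 0.15 adjusted), but M2 and M6 lay just above M3, and without M4 the shift was 0.28. For Fcer1a minus Ms4a2 the groups overlapped, with a shift of 0.31 (exact permutation p = 0.3) that was 0.081 without M6.

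With 3 cultures against 3 the smallest p this test allows is 0.1, so no pair could pass. The first 2 pairs share the Fcer1g set and are not independent. Groups did not overlap in 12.2% of single sets on chip A, and the share over pairs of sets was not computed. The shift of alpha against gamma was 0.79 without M4, 0.77 without M5 and 0.95 without M6.

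**Figure D4:**
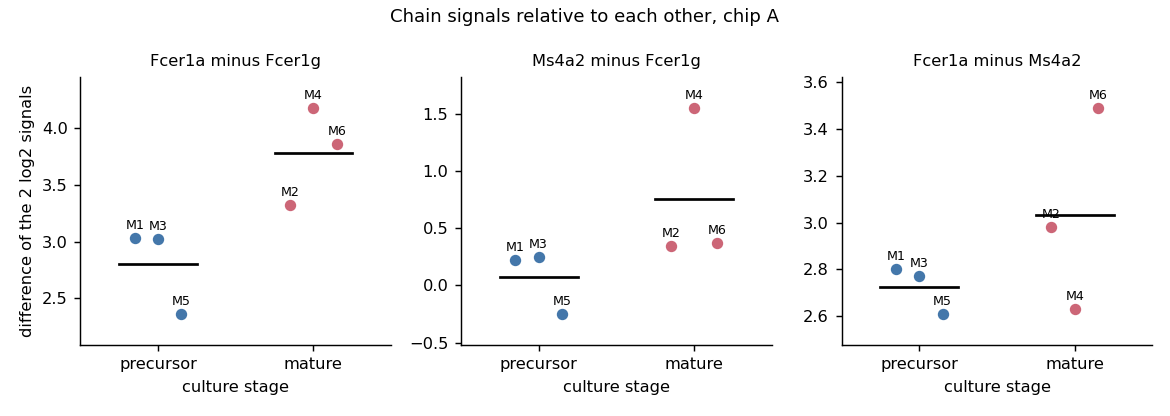
Log2 signal of 1 chain minus that of another in each culture on chip A (y axis, log2; each panel has its own range, which does not start at 0), for precursor and mature cultures. Points are cultures and lines are group means. The mature cultures lie above the precursors for alpha against gamma (3.32 to 4.18 against 2.36 to 3.03) and for beta against gamma, where M4 stands apart, and overlap them for alpha against beta.

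Because the gamma chain serves other receptors, the genes of 10 such receptors were read beside it. Of these, 9 were on the arrays and 6 were tested. None rose or fell, while over all 11769 genes tested 0.314% fell and 0.085% rose. All 6 differences were below 0, with a median of -0.64. In 3 of them, all on chip A, the 3 mature cultures lay below the 3 precursors. Of all sets on chip A, 12.2% did not overlap in either direction, and the share that lay below was not computed. Fcgr3, the low-affinity activating IgG receptor that mast cells also carry, read 7062, 4956 and 6778 in M1, M3 and M5 and 3051, 2929 and 3693 in M2, M4 and M6. Its groups did not overlap, and its difference of -0.95 ± 0.25 did not pass (log2, SE; limma adjusted p = 0.198, unadjusted p = 0.00283). Clec4n (Dectin-2), a receptor for fungal sugars, had 2514 to 11496 in precursors and 1081 to 1494 in the mature cultures, a difference of -2.33 ± 0.49 (limma adjusted p = 0.0874). It did pass with array weights, with sex or station as a block, and without M1. Clec4d, a related lectin, had 1131 to 2845 and 333 to 688 (difference -1.70 ± 0.42, limma adjusted p = 0.159). A further set of Clec4n was too dim to be tested.

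The other 3 partners overlapped between the groups. Fcgr1, the high-affinity IgG receptor, had a difference of -0.34 ± 0.27 on chip B (log2, SE), and its chip A set was too dim to be tested. Fcgr4, a further activating IgG receptor, had -0.26 ± 0.39, and Oscar, a collagen receptor of the myeloid line, had -0.12 ± 0.35 for the brighter of its 2 sets by the rule used here, with overlap in both. Clec4e, the platelet collagen receptor gene Gp6 and the natural killer cell receptor gene Ncr1 were too dim to be tested.

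Markers of macrophages, which carry several of these partners, were read beside them. The signal summed over 18 monocyte and macrophage markers on chip A was 44898 to 88666 in precursors and 18523 to 22332 in the mature cultures. A large part of the mature sums was Cx3cr1, which went the other way. It read 7927 to 8085 in precursors and 9974 to 11550 in the mature cultures (difference 0.45 ± 0.21, log2, SE; limma adjusted p = 0.748). Of 12 tested, 6 fell, 0 rose and 6 did not pass, with a median of -1.80. The count rested in part on single cultures: 2 fell without M5 (Csf1r and Lyz2), 3 without M2 or M4, 4 without M1 and 5 without M3 or M6. Of the 18 on chip A 2 were at the floor in all precursors and 4 in all mature cultures. The macrophage growth factor receptor gene Csf1r, for example, fell 8.33-fold (limma adjusted p = 0.00901), the lysozyme gene Lyz2 fell 13.0-fold (limma adjusted p = 0.00464), and Itgam and Mpeg1 were at the floor in all 3 mature cultures. Among the mature cultures M2, which had the lowest sum of these markers (18523), had the highest Fcer1g (8267). M5, with by far the highest sum among the precursors (88666), had an Fcer1g signal of 8822, within the narrow range of that group. The part of macrophages in the Fcer1g signal was not tested.

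Other cell type lists were read the same way. Of 6 tested mast cell markers 5 did not pass and 1 fell, the histamine-forming enzyme gene Hdc (6.13-fold; limma adjusted p = 0.0134), a call lost without M2 (0.0557) or M5 (0.0621). The granule protease genes Cpa3 and Cma1, the brightest of the list, had differences of 0.09 ± 0.26 and 0.63 ± 0.26 (log2, SE). Of 8 neutrophil markers 1 fell, the lectin gene Chil3 (limma adjusted p = 2.44e-06), and without M3 4 did (Chil3, Ltf, Mpo and Ngp). Chil3 did not follow the others over the precursors. It was highest in M3 (56623), where Ngp (601), Mpo (614) and Ltf (265) were at their lowest among the precursors. Of 9 dendritic cell markers 2 fell, the class II genes H2-Aa and H2-Eb1 (limma adjusted p = 0.00858 and 0.0182), and H2-Eb1 missed the threshold when any of M2, M3, M4 and M5 was left out (0.0573 to 0.0871). Of 6 stromal markers 1 fell, Igfbp4 (limma adjusted p = 0.0211), which missed it when any of M2, M3, M5 and M6 was left out (0.0781 to 0.096), while Sparc had 0.33 ± 0.30. None of 9 basophil markers changed, with a median of -0.25 and differences from -3.62 (Mcpt8) to 0.56 (Cd69). Itga2b and Basp1 were brightest (0.44 ± 0.31 and 0.38 ± 0.22). All 3 mature cultures lay below the precursors for Cd200r3 (-1.08 ± 0.26) and Cd9 (-1.32 ± 0.42), and above them for Basp1. Groups did not overlap, in either direction, in 12.2% of tested sets on chip A. No such share was computed for chip B, where Cd200r3 was read. Mcpt8 fell without M3. None of 3 lymphocyte markers changed, of which Cd8a and Pax5 were brightest (0.38 ± 0.26 and 0.58 ± 0.42). Both were read on chip B, Cd8a by 1 of 5 sets of the gene. The lymphocyte genes Cd3e, Cd3g, Cd79a, Cd79b and Cd4 were too dim to be tested. No marker of these lists rose, and none of the calls held with no filter on dim sets.

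**Figure D5:**
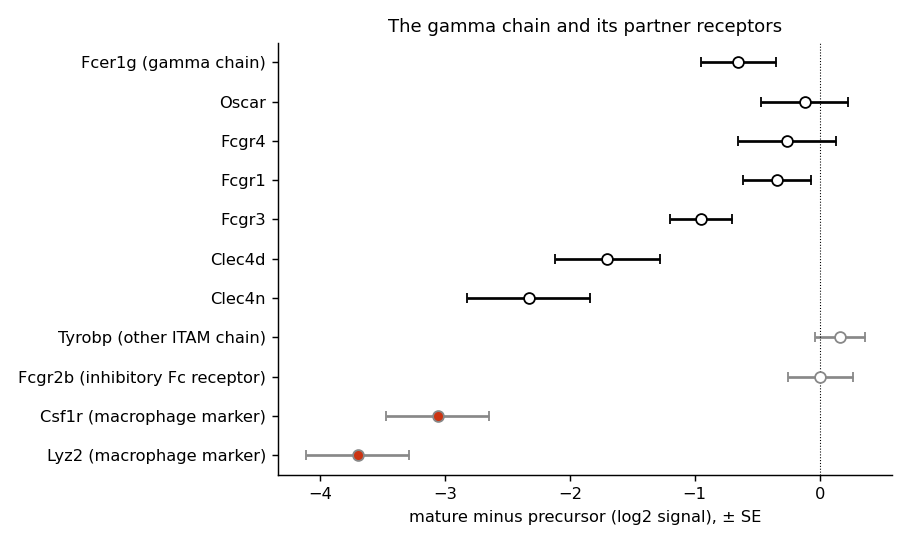
Mature minus precursor differences (x axis, log2 signal, with SE) of Fcer1g, the 6 tested receptors that pair with its product, and, in grey, 4 genes for reference. Filled points passed an adjusted p of 0.05. Fcer1g and its partners all lie below 0 without passing, Tyrobp and Fcgr2b lie near 0, and Csf1r and Lyz2 fell.

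Tyrobp (DAP12), another signalling chain with an ITAM that pairs with myeloid receptors, was the only 1 of 7 such chains bright enough to be tested. It read 41700, 36315 and 34187 in M1, M3 and M5 and 41125, 45553 and 38646 in M2, M4 and M6, with overlap, a difference of 0.16 ± 0.20 (log2, SE) and no call. In M4, where Fcer1g was lowest, Tyrobp was at its highest. The T cell receptor chains Cd3d, Cd3e and Cd3g and the related zeta chain Cd247 were below the filter.

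Other receptors and proteins that meet IgE or IgG gave no calls. Fcgr2b, the inhibitory IgG receptor that restrains the IgE receptor when both are engaged, had 6568 to 9543 in precursors and 6778 to 10588 in the mature cultures (difference 0.0047 ± 0.26, log2, SE). Lgals3 (galectin-3), a lectin that can bind IgE, had 14007 to 20003 in precursors and 5072 to 9063 in the mature cultures. Its groups did not overlap, which was so for 12.2% of tested sets on chip A in either direction. Its difference of -1.23 ± 0.27 did not pass (limma adjusted p = 0.111), though it did with sex as a block. Fcer2a (CD23), the low-affinity IgE receptor of B cells, read 368 to 458 in precursors and 391 to 505 in the mature cultures and was too dim to be tested.

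The Ms4a family, to which the beta chain belongs, held 6 tested genes beside it, of which 0 rose and 0 fell, with a median of -0.81. Ms4a3, known from granulocyte and monocyte progenitors, read 5398, 1197 and 12279 in M1, M3 and M5 and 1145 to 1553 in the mature cultures (difference -1.65 ± 0.65, log2, SE; limma adjusted p = 0.628), so that its high values were those of M1 and M5. Ms4a15 on chip B had a difference of -0.30 ± 0.23. Ms4a6d had the lowest difference of the family, -1.69 ± 0.45 (limma adjusted p = 0.213), and all 3 mature cultures lay below the precursors. Groups did not overlap, in either direction, in 12.2% of tested sets on chip A. Without M3 both Ms4a3 and Ms4a6d passed. The highest difference of the 6 was 0.33, that of the B cell marker Ms4a1. Ms4a2 itself had 0.033 on chip A and 0.22 on chip B.

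Downstream of the receptor, 27 of 33 listed signalling genes were tested, and 0 rose and 0 fell (median -0.054). The brightest were Plcg1, a phospholipase C that raises calcium, with a difference of 0.14 ± 0.23 on chip B, and Prkcb, a protein kinase C, with -0.14 ± 0.25 (log2, SE). Syk, the kinase that docks on the gamma chain ITAM, had -0.054 ± 0.24, and Lat, the adaptor that Syk phosphorylates, had 0.22 ± 0.25. The extremes were the kinase Tec at -0.87 ± 0.25 and the calcium sensor Stim1 at 0.80 ± 0.26, and neither passed (limma adjusted p = 0.314 and 0.413). Of 13 tested inhibitory receptors and phosphatases 0 rose and 0 fell (median 0.0047). The brightest, the inhibitory receptor Cd300a and the lipid phosphatase Inpp5d (SHIP1), had differences of 0.67 ± 0.29 and 0.15 ± 0.25.

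Of 14 transcription factors known at the promoters of the chain genes, mostly from human cells, 11 were tested, and 0 rose and 0 fell (median 0.15). Gata2 read 23812 to 35383 in precursors and 27754 to 50269 in the mature cultures, with a difference of 0.29 ± 0.27 (log2, SE; limma adjusted p = 0.902). Gata1, which like Gata2 acts on the chain genes in mouse mast cells, had 0.25 ± 0.25 (adjusted p = 0.915). Spi1 (PU.1), an ETS factor of myeloid cells that is also known at the human alpha chain promoter, had -0.43 ± 0.24 (adjusted p = 0.808). All 3 of its mature values lay below the precursors, while 12.2% of tested sets on chip A did not overlap in either direction. Elf1, another ETS factor, had 0.45 ± 0.38. Of 12 tested genes of receptor assembly and transport, 10 of which act in the endoplasmic reticulum, where chains are assembled, and 2 in endosomes (Rab5a and Snx1), 0 rose and 0 fell (median -0.17). The brightest were Sec61a1, part of the protein channel, with 0.58 ± 0.22, and the chaperone Calr, with 0.083 ± 0.30. Pdia4, a disulphide isomerase, had the lowest, -1.56 ± 0.31 (adjusted p = 0.0665), and passed with station as a block.

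The sets whose pattern over the 6 cultures was most like that of each chain were found by Pearson's r of log2 signal. These r values are descriptions of 6 cultures that share arrays and scaling with the chain, and many sets reach a high r over so few points. For Fcer1a they were Git2, Adam17 and Gbp6 on chip A (r = 0.9885, 0.9884 and 0.9863), and 186 of 10464 sets had an r over 0.9. For Fcer1g they were Nme4, Fxyd5 and Adk (r = 0.9961, 0.9853 and 0.983), with 64 sets over 0.9. Nme4, for example, read 598, 669 and 624 in M1, M3 and M5 and 601, 180 and 343 in M2, M4 and M6, low in M4 and M6 as Fcer1g was. It was a dim set: its M4 value lay below the floor of 247, which replaced it, and the median used as filter was 582. For Ms4a2 on chip B they were Gcn1, Ank1 and Zfp862-ps (r = 0.9936, 0.9861 and 0.9822), with 44 of 7312 sets over 0.9 and the highest value in M6 in each. None of these 9 sets changed between the stages.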

How the data were processed

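The deposited values are the authors' intensity, 1 linear value for each probe set and array, made with MAS5 per the submitters' processing notes. Its version, settings and detection calls are not given in the sources used here. Each array had a trimmed mean (without 2% of the sets at each end) of about 1500 in the value tables, as scaled by the authors. The instrument records (unit: other) were read for the fluidics station only. Each chip type had its own fit. A floor at the 30th percentile of its table (247 for chip A, 359 for chip B) replaced lower values before log2 was taken. Sets with at least 3 of 6 arrays above the median (582 and 864) were kept and control sets left out, leaving 11576 and 11880. Groups were compared with limma 3.58.1 (R 4.3.3; lmFit, eBayes with an intensity trend, no covariate), with Benjamini-Hochberg adjustment over all kept sets of a chip. Pairs of chains were compared by an exact two-sided permutation test over cultures (scipy 1.17.1). Tested on simulated data, the fit recovered most large changes and none of the smallest simulated ones, which were still larger than the differences of the chains. A precision limit is set by the number of arrays.

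For gene lists the brightest kept set per gene was used, chip A first. A probe set was named only where the platform annotation gives it 1 symbol (20380 of 22626 sets on chip A, 14661 of 22511 on chip B), updated through the gene ID to RefSeq. Named genes were all member sets, all tested gamma chain partners, for each list the members past the test (up to 3 rises and 3 falls by size) or, where fewer than 2 passed, the 2 brightest, and the 3 sets most like each chain. Others, among them Syk, Lat, Tec, Stim1, Fcgr2b, Spi1, Elf1, Pdia4, Rab5a, Snx1, Ms4a1, Ms4a6d, Fcer2a, Kit, Hdc, Mcpt8, Ltf and Itgam, were chosen for their role or after their values were seen. The members, lists and tests were chosen with earlier results of these data known. The alternatives were 2 other scalings, 2 floors, 2 filters, no trend, array weights, sex or station as a block, and each culture left out in turn. Counts of calls in the lists under these alternatives were added after seeing the data.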

Additional observations from a re-analysis of the deposited data

How the results depend on the processing

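None of the 4 member sets passed limma's test under any of 16 alternatives. The difference (log2) ran from 0.15 to 0.48 for Fcer1a, from -0.95 to -0.37 for Fcer1g and from 0.098 to 0.31 for Ms4a2 on chip B, with no change of sign, and adjusted p from 0.418 (Fcer1g without M2) to 1. For Ms4a2 on chip A it ran from -0.10 to 0.25 as cultures were left out, below 0 without M2 (-0.061), M4 (-0.088) or M5 (-0.10), and from 0.032 to 0.12 in the 10 alternatives that kept all cultures. The shift of alpha against gamma ran from 0.77 to 1.22 over 8 alternatives, that of beta against gamma from 0.28 to 0.89 and that of alpha against beta from 0.081 to 0.51, each above 0. No other chip A set of a chain gene was annotated, so the alternative with another set was not run.

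The background counts moved more. On chip A, 61 sets changed, 1 with no filter on dim sets, and 21 (without M5) to 59 as cultures were left out, with 25 without M2. On chip B, 11 changed, 4 with no floor, 17 with a higher floor (50th percentile), 0 with no filter (1227 at an unadjusted p under 0.05), 6 with a filter on the mean (over the 60th percentile), 3 with no intensity trend, 7 with array weights and 17 with sex as a block. It was 3 (without M6) to 11 as cultures were left out, with 5 without M2 or M4 and 6 without M5. With no filter, more sets were tested (22626 and 22511). The cause of the other moves was not tested. The median difference of all sets moved by less than 0.1 under every scaling. No paired analysis was possible because the cultures of the 2 groups share no replicate number. With 3 cultures a group, no set that did not pass is shown to be equal between the stages.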
